A study of Mus musculus with 8 samples.

Results

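The forkhead (Fox) and SOX genes examined here are the rows of the mouse count table whose symbols follow the pattern of the 2 families, without Foxa1, Foxa2, Foxm1, Sox2, Sox9 and Sox15. The pattern matched 62 rows, and 56 genes remained after those 6 were left out, 40 forkhead and 16 SOX genes, of 23284 rows in all. Of the 56, 44 had counts: 26 had enough for a test (19 forkhead and 7 SOX genes), and 18 had too few, where enough means about 10 counts, scaled to depth, in at least 4 libraries and 15 in all. The other 12 had no count in any library. They were Foxb1, Foxb2, Foxd3, Foxe3, Foxi1, Foxi2, Foxi3, Foxr1, Sox1, Sox3, Sox10 and Sox14.

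Polyadenylated RNA came from mouse alveolar organoids, which are lung cells grown in drops of matrigel. Every line carried an Sftpc-eGFP transgene, in which regulatory DNA of the surfactant protein C gene drives enhanced green fluorescent protein (GFP). Surfactant protein C marks alveolar type 2 (AT2) cells. Cells of 4 lines (SN2285, SN2286, SN2293 and SN2294) were sorted into a GFP-positive and a GFP-negative fraction, which gave 4 libraries a sort, and the labels name no other treatment. Whether the lines came from separate animals is not stated in the labels, so the p-values measure the spread between these lines. The sort rests on the transgene, and Sftpc itself averaged 17652 ± 2121 CPM, counts scaled to a common library total, in GFP-positive cells and 871 ± 416 CPM in GFP-negative cells (SD, n = 4 each). The GFP-negative fraction is what remains after the AT2 reporter is taken out and has no marker of its own in the sort.

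Forkhead factors bind DNA through a winged-helix domain, and SOX factors bind and bend it through a domain called the HMG box. Members of both families set cell identity in the embryo, and single members are known marks of mesenchyme, endothelium, ciliated cells, neural crest or thymus. The FOXO, FOXP and FOXK groups and several SOX genes are instead used in many cell types, the FOXP group with known roles in the lung epithelium.

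The GFP-positive libraries held 11202576 to 16032633 counts each and 3 of the GFP-negative ones 14408203 to 15583384. The GFP-negative library of line SN2294 was the shallowest, with 5910344, and it alone held clear leukocyte transcripts (Csf1r 69 counts and Ptprc 26, against 0 to 2 counts of either gene in the other libraries). Counts of the 56 genes made up 0.0829 to 0.0879% of each GFP-positive library, against 0.101 to 0.114% of each GFP-negative one. In GFP-positive cells 19 of 20 measured AT2 markers were higher, against 18.9% of all genes tested. Among basal cell markers 17 of 19 were lower there, against 21.8% of all genes. CPM values are scaled by TMM, a correction for library composition, and are given in the order SN2285, SN2286, SN2293 and SN2294 within each sort. Fold changes and adjusted p-values (FDR) come from edgeR's quasi-likelihood test over 12848 genes, with a call at an FDR under 0.05. In sorted bulk RNA, fewer cells of a type and less RNA per cell cannot be told apart.

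Of the 26 genes tested, 5 were higher and 13 were lower in GFP-positive cells, in a fit that did not pair the libraries by line. Among all genes tested the share called was 40.7% (18.9% higher and 21.8% lower), and the median log2 fold change was −0.01, against −0.38 for the 26. A change of 2-fold or more was called in 2 of the 26 upwards, against 4.41% of all genes, and in 9 downwards, against 11.1%. These shares lean on the filter. Through GFP-negative cells alone 6 of the 26 passed it (Foxc1, Foxe1, Foxf2, Foxj1, Foxl1 and Sox7), and through GFP-positive cells alone 1 (Foxo6). Entry by the level in 1 sort favours a difference, although it does not force a call. Of the 19 that reached the filter level in 3 or more libraries of each sort, 4 were higher and 7 lower, with a median of −0.07. Over all 11911 genes of that kind 19.8% were higher and 18.6% lower, with a median of 0.01. Levels did not overlap between the sorts for 16 of the 26, against 39.5% of all genes. Each of the 18 called genes moved the same way in 4 of 4 lines, as did Foxq1, Foxj2, Sox13 and Foxn2, which were not called. These directions come from the same values as the calls and are no separate evidence. Forkhead genes gave 4 higher and 8 lower calls, and SOX genes 1 higher and 5 lower. With line as a term 21 of the 26 were called, 6 higher and 15 lower, against 48.0% of all genes.

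**Figure D1:**
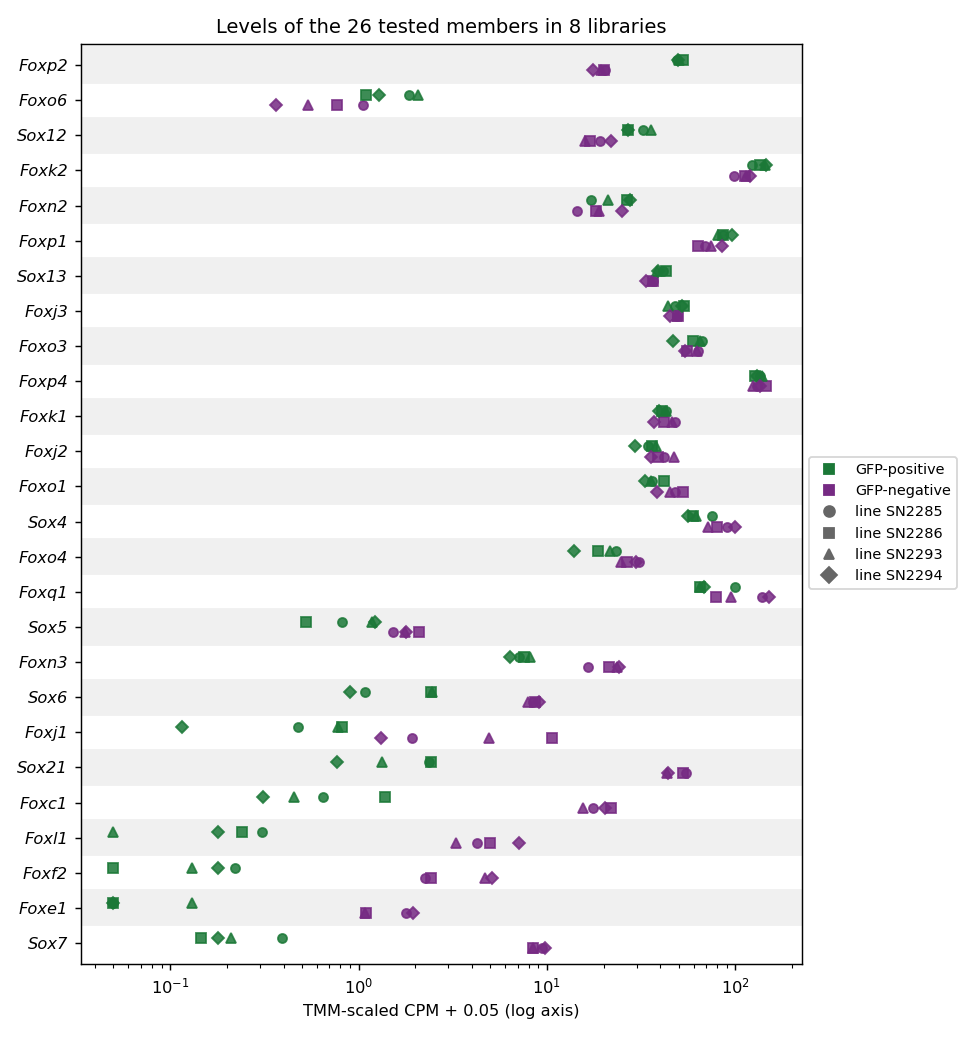
Level of each of the 26 tested genes in 8 libraries, in TMM-scaled CPM plus 0.05 on a log axis, with GFP-positive libraries in green above GFP-negative ones in purple and 1 marker shape per line. The genes run from the highest to the lowest fold change, and the 6 at the bottom, from Sox21 to Sox7, lie far apart between the sorts.

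The FOXP group held the gene with the highest log2 fold change of the 26, Foxp2. These factors repress transcription and pair with each other, and Foxp1, Foxp2 and Foxp4 are known from the developing airway and alveolar epithelium. Foxp2 stood at 48.9, 52.8, 50.05 and 49.4 CPM in GFP-positive libraries, against 20.3, 20.0, 19.3 and 17.5 CPM in GFP-negative ones. Every GFP-positive library was above every GFP-negative one, and the spread within each sort was small, with a GFP-positive mean of 50.3 ± 1.72 CPM and a GFP-negative mean of 19.3 ± 1.25 CPM (SD, n = 4 each). The rise was 2.60-fold (log2 fold change 1.38, SE 0.08, edgeR FDR 1.9e-07). Foxp1 had 85.6, 86.2, 81.3 and 95.6 CPM in GFP-positive libraries, against 69.1, 63.5, 74.2 and 85.1 CPM in GFP-negative ones. The sorts overlapped across lines, although GFP-positive cells were higher within every line. The rise of Foxp1 was small (log2 fold change 0.26, SE 0.09, edgeR FDR 0.0416). That call ended without any 1 of 6 libraries, all but GFP-positive SN2293 and GFP-negative SN2294, with FDRs of 0.0634 to 0.118. Those fits did not pair the libraries by line. With line as a term the edgeR FDR of Foxp1 was 0.0088, and 0.0641 when line SN2286 was left out. Foxp4 had 135, 127, 138 and 130 CPM in GFP-positive libraries and 130, 146, 125 and 136 CPM in GFP-negative ones. The 2 ranges covered each other, and no difference was called for Foxp4 (log2 fold change −0.02, SE 0.07, edgeR FDR 0.878).

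Foxp3, the factor of regulatory T cells, was at the limit of detection, with 5 counts over the GFP-positive libraries and 10 over the GFP-negative ones. Of those 10, 5 lay in the GFP-negative library of SN2294. In that library the leukocyte list summed to 154 CPM, against 18.7 to 31.4 CPM in GFP-positive libraries and 49.1 to 63.7 CPM in the other GFP-negative ones. Of the 24 leukocyte markers in the table, 3 had enough counts for a test and 2 of these were lower in GFP-positive cells, Ikzf2 (log2 fold change −2.04) and Cd68 (−1.04). That is 66.7% called, against 40.7% of all genes tested. Ikzf2 and Cd68 averaged 30.2 and 30.6 CPM in GFP-negative cells, against 7.33 and 14.7 CPM in GFP-positive cells. They gave nearly all of the leukocyte sum in the GFP-negative libraries other than SN2294. The T cell markers Cd3e, Cd8a and Il2ra had 0 counts in all libraries. Among GFP-positive libraries SN2285 held 1 count each of Cd3d and Cd4, and among GFP-negative ones SN2293 held 2 of Cd4 and SN2294 held 1 of Ctla4, a further T cell marker (these 3 named after their values were seen). The part of leukocytes in the Foxp3 counts was not tested.

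FOXO factors are held in the cytoplasm when insulin or growth factor signals activate AKT, and in the nucleus they drive genes of cell cycle arrest, oxidant defence and fasting metabolism. Their levels moved in different directions. Foxo6, best known from brain, had 1.80, 1.05, 2.01 and 1.24 CPM in GFP-positive libraries, against 1.003, 0.723, 0.487 and 0.315 CPM in GFP-negative ones. The sorts did not overlap, but the margin was narrow and Foxo6 passed the filter through GFP-positive cells alone (log2 fold change 1.18, SE 0.38, edgeR FDR 0.0284). The call ended without the GFP-positive library of SN2285 or SN2293 or the GFP-negative library of SN2286 or SN2293, with FDRs of 0.0539 to 0.0867. Those fits were unpaired. With line as a term the edgeR FDR of Foxo6 was 0.0192, and 0.138 when line SN2293 was left out. Foxo4 fell to 19.3 ± 4.09 CPM in GFP-positive cells, against 27.9 ± 2.73 CPM in GFP-negative cells (log2 fold change −0.53; SD, n = 4 each). Foxo1 fell to 36.6 ± 3.502 CPM in GFP-positive cells, against 45.8 ± 5.97 CPM in GFP-negative cells (log2 fold change −0.33). Foxo4 kept its call in all 20 alternatives. Foxo1 lost its call without any 1 of 6 libraries, all but GFP-positive SN2286 and GFP-negative SN2294, with FDRs of 0.0528 to 0.0971. Those fits too were unpaired. With line as a term the edgeR FDR of Foxo1 was 0.0033, and 7.7e-04 to 0.0259 when a line was left out. Foxo3 had 66.2, 59.4, 64.6 and 46.8 CPM in GFP-positive libraries and 63.6, 55.5, 62.4 and 53.9 CPM in GFP-negative ones. The lowest Foxo3 level of each sort was in SN2294, and no difference between the sorts was called (log2 fold change 0.01, SE 0.11, edgeR FDR 0.975).

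Genes around the FOXO factors changed in both directions. Of 34 measured regulators of FOXO activity, 8 were higher and 13 were lower in GFP-positive cells, with a median log2 fold change of −0.21. That is 61.8% called, against 40.7% of all genes tested (18.9% higher and 21.8% lower). The 4 with the smallest p were the 14-3-3 genes Sfn (−1.28) and Ywhah (0.77), whose products hold FOXO in the cytoplasm, the lipid kinase subunit Pik3cb (0.87), and the ubiquitin ligase Mdm2 (−0.66). The kinase gene Akt2 rose (0.49), whereas Sgk1 fell (−1.37); both were named after their values were seen. Of 25 measured FOXO target genes, 3 were higher and 10 lower (52% called), with a median of −0.34. The 4 with the smallest p were the cyclin gene Ccnd2 (−1.42), the catalase gene Cat (0.84), the repressor gene Bcl6 (−1.09) and the stress sensor gene Sesn1 (−0.93). Most of these targets answer to other factors as well. The targets summed to 2722 to 3091 CPM in GFP-positive libraries, against 3654 to 3922 CPM in GFP-negative ones. Ccnd2 alone averaged 297 CPM in GFP-positive cells and 797 CPM in GFP-negative cells, a large part of that gap. The list was not divided by whether FOXO factors raise or lower a gene. Its sum and its counts of directions therefore do not measure FOXO activity.

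Other widely used forkhead genes changed little, apart from Foxn3. Foxk2, which with Foxk1 is known from the control of autophagy and metabolic genes, had 122, 135, 144 and 145 CPM in GFP-positive libraries, against 98.9, 113, 114 and 120 CPM in GFP-negative ones. GFP-positive cells were higher in each line by a similar step (log2 fold change 0.30, SE 0.08, edgeR FDR 0.0114). Scaled by library size alone, which moves the median of all genes to −0.16, the Foxk2 value was 0.15 and was not called. Foxk1 and Foxj3 were not called, with log2 fold changes of −0.07 and 0.03. Foxn3, a repressor first known from cell cycle checkpoint control, fell to 7.03, 7.53, 8.05 and 6.31 CPM in GFP-positive libraries, against 16.5, 21.2, 23.5 and 24.1 CPM in GFP-negative ones. No GFP-positive library reached the lowest GFP-negative one, and the fall was 2.94-fold (log2 fold change −1.56, SE 0.15, edgeR FDR 6.2e-06).

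**Figure D2:**
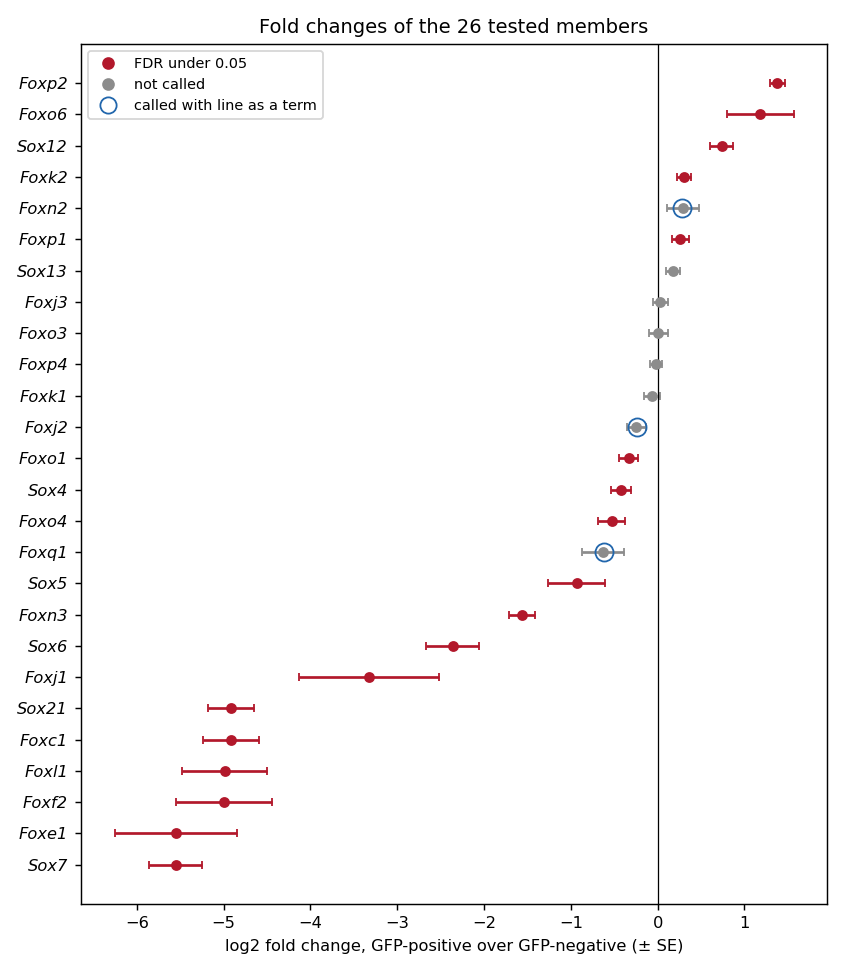
Log2 fold change of each of the 26 tested genes, GFP-positive over GFP-negative, with bars of 1 SE, in red where the edgeR FDR is under 0.05 and in grey otherwise. Open blue rings mark Foxn2, Foxj2 and Foxq1, which were not called in the unpaired fit and were called with line as a term.

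Pairing the libraries by line (replicate block) narrowed the spread and raised the calls to 21 of the 26, against 48.0% of all genes. The 3 additions were Foxq1, Foxj2 and Foxn2. Foxq1, known in mice from hair structure and stomach acid secretion, had 99.6, 65.2, 64.7 and 68.1 CPM in GFP-positive libraries, against 139, 79.4, 94.3 and 151 CPM in GFP-negative ones. The sorts overlapped across lines, but GFP-positive cells were lower in each line. The log2 fold change was −0.63 with an edgeR FDR of 0.0710, and with the replicate block it was −0.61 with an FDR of 0.0032. Foxj2 had a log2 fold change of −0.25 and an FDR of 0.101, and 0.0245 with the block. Foxn2 had 17.1, 26.5, 21.2 and 27.6 CPM in GFP-positive libraries, against 14.4, 18.1, 18.9 and 24.9 CPM in GFP-negative ones. It too was shifted within each line while the sorts overlapped (log2 fold change 0.30, edgeR FDR 0.237, and 0.0418 with the block).

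Among forkhead genes with more than 3 counts in GFP-positive cells, the largest falls were those of Foxc1, Foxf2 and Foxl1, which are known from mesenchyme. Foxc1 directs mesenchyme of the eye, skull and vessels, and is also known from hair follicle epithelium. It had 0.5998, 1.33, 0.402 and 0.260 CPM in GFP-positive libraries, against 17.4, 21.9, 15.4 and 20.3 CPM in GFP-negative ones, a 30.2-fold fall (log2 fold change −4.91, SE 0.33, edgeR FDR 4.6e-07). The GFP-positive level was 1.28 to 6.10% of the GFP-negative level of the same line. Foxf2 and Foxl1, both known as hedgehog targets in gut mesenchyme, were close to absent from GFP-positive cells. Foxl1 had 0.257, 0.191, 0 and 0.130 CPM there, against 4.21, 4.93, 3.23 and 7.09 CPM in GFP-negative libraries, from 7 counts in the GFP-positive and 236 in the GFP-negative libraries (log2 fold change −4.99, SE 0.49, edgeR FDR 7.9e-06). Foxf2 had 0.171, 0, 0.0805 and 0.130 CPM in GFP-positive libraries, against 2.21, 2.37, 4.63 and 5.04 CPM in GFP-negative ones, from 5 counts in the GFP-positive and 177 in the GFP-negative libraries (log2 fold change −5.00, SE 0.55, edgeR FDR 1.9e-05). Both were at or under the floor of 3 counts in every GFP-positive library, so their fold changes are loosely fixed on that side. All 3 passed the filter through GFP-negative cells alone.

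The other mesenchymal members stayed under the filter. Foxc2 had 3 counts over the GFP-positive libraries and 17 over the GFP-negative ones, a GFP-negative rate 5.35 times the GFP-positive one (95% counting interval 1.55 to 28.5). Foxd2 had 3 GFP-positive and 13 GFP-negative counts (4.09 times, 1.12 to 22.4). Foxd1, known from kidney stroma and lung pericytes, had 1 GFP-positive and 7 GFP-negative counts (6.61 times, 0.849 to 298). Foxs1 had 0 counts in GFP-positive and 7 in GFP-negative cells, which places the GFP-negative level at least 2.20-fold higher against a floor of 3 counts over the group. These intervals cover counting error only, and no difference between the sorts was called for any of the 4 in a test without the filter. Foxf1, which is needed for lung mesenchyme and vessels, stood in the table under its older symbol Foxf1a and so fell outside the pattern. It was looked up after the other values were seen and had 0, 2, 2 and 5 counts in GFP-positive libraries, against 60, 77, 87 and 52 counts in GFP-negative ones (log2 fold change −4.88, SE 0.47, edgeR FDR 6.5e-06).

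Fibroblast and mural cell markers moved the same way. All 21 measured of 28 were lower in GFP-positive cells, against 21.8% of all genes tested. Their median log2 fold change was −4.64, or −4.60 with Tcf21, which had 0 counts in GFP-positive libraries, at its bound. Of these 21, 12 passed the filter through the GFP-negative libraries alone, which favours a lower GFP-positive level. All 9 that reached the filter level in both sorts were lower too. Among the 7 not measured, Cnn1, Myh11 and Rgs5 were not lower in GFP-positive cells, with Cnn1 at 4 to 5 counts in each GFP-positive library and 0 to 5 in each GFP-negative one (named after their values were seen). The 4 with the smallest p were Pdgfra (−5.81), Snai2 (−5.23), Pdgfrb (−4.44) and the collagen gene Col6a3 (−4.65). The list summed to 377 to 712 CPM in GFP-positive libraries, against 1601 to 2403 CPM in GFP-negative ones. The fibronectin gene Fn1, also used outside fibroblasts, was 93.8 to 96.2% of that GFP-positive sum (554 CPM in GFP-positive cells and 1325 CPM in GFP-negative cells on average, log2 fold change −1.26), and without it the list summed to 21.7 to 32.4 CPM in GFP-positive libraries, against 553 to 967 CPM in GFP-negative ones. Basal cell markers summed to 1564 to 1868 CPM in GFP-positive libraries, against 4082 to 4746 CPM in GFP-negative ones, and their 4 with the smallest p were Itgb4 (−3.37), Cdh3 (−2.45), Trp63 (−5.73) and Snai2, which both lists hold. Bcam was the 1 basal marker that rose (1087 CPM in GFP-positive cells and 433 CPM in GFP-negative cells on average, log2 fold change 1.33). It made up 61.8 to 64.9% of the basal sum in GFP-positive libraries, and without it that sum was 557 to 666 CPM there, against 3715 to 4222 CPM in GFP-negative libraries. Of the 17 lower basal markers, 4 passed the filter through the GFP-negative libraries alone. Fn1 and Bcam were named after their values were seen. Pdgfra kept 1.29 to 2.17% of its GFP-negative level in the GFP-positive cells of the same line and Trp63 1.41 to 3.13%. How much of the fall in Foxc1, Foxf2 and Foxl1 moved with either cell type was not tested.

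**Figure D3:**
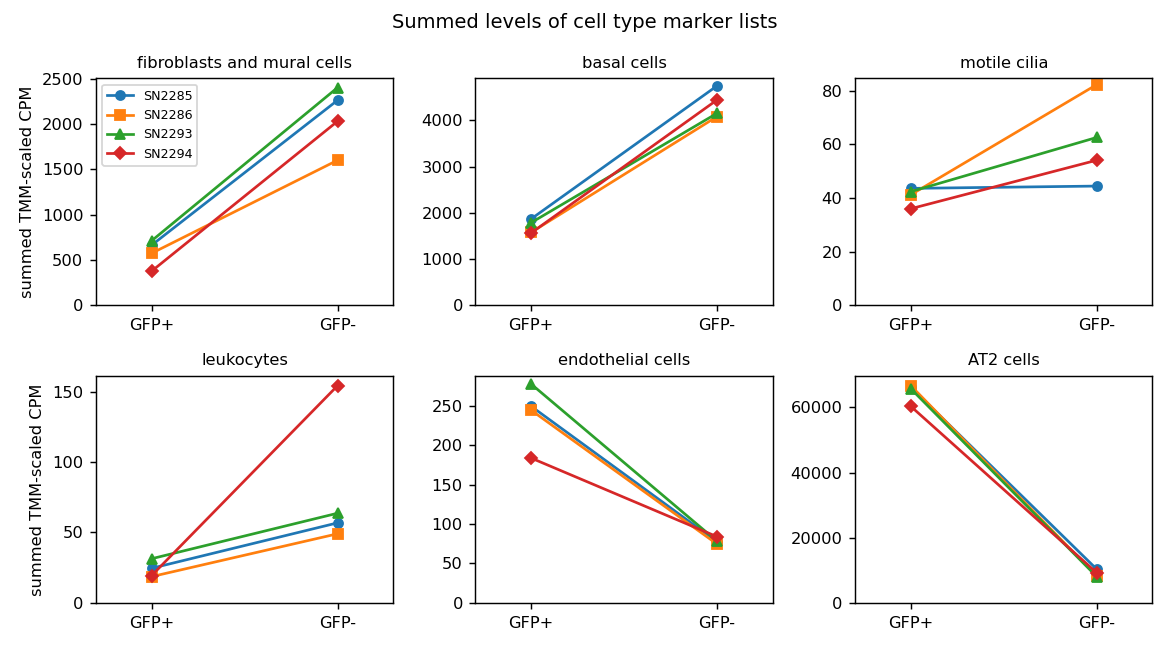
Summed TMM-scaled CPM of 6 marker lists in GFP-positive (left) and GFP-negative (right) cells, with 1 line of the plot per organoid line and axes that start at 0. The fibroblast, basal, motile cilia and leukocyte sums were higher in every GFP-negative library, the leukocyte sum most in SN2294. In the other GFP-negative libraries Cd68 and Ikzf2 gave nearly all of the leukocyte sum. The AT2 and endothelial sums were higher in every GFP-positive library, but Esam was 74.6 to 85.5% of that endothelial sum. Without Esam the endothelial sum was 26.6 to 62.1 CPM in GFP-positive and 59.7 to 67.6 CPM in GFP-negative libraries.

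Foxc1 and Foxf2 are next to each other on chromosome 13 of the mouse assembly GRCm38.p6, and Foxq1 is the neighbour on the far side of Foxf2, with no other protein-coding gene between them. Foxc1 and Foxf2 fell by 4.91 and 5.00 on the log2 scale, whereas Foxq1 was at −0.63 and was abundant in both sorts. On chromosome 8, Foxf1, Foxc2 and Foxl1 lie in a similar row, with 1 other gene between Foxf1 and Foxc2. The 250 bases before the start site are printed for Foxc1 and Foxf2, the neighbours that fell together, for Sox21, the SOX gene with the most counts among those that fell 2-fold or more, and for Sox12, the SOX gene that rose. They come from RefSeq (GRCm38.p6), matched by symbol, and run 5′ to 3′ on the strand of the gene, with matches to the 3 searched factor motifs in capitals.
Foxc1, chr13:31806396-31806645, plus strand: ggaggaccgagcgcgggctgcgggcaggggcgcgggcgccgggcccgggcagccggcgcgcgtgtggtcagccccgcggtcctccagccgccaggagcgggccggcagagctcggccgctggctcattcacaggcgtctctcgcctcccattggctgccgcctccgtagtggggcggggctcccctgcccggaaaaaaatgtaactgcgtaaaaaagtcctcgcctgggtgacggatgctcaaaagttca
Foxf2, chr13:31625566-31625815, plus strand: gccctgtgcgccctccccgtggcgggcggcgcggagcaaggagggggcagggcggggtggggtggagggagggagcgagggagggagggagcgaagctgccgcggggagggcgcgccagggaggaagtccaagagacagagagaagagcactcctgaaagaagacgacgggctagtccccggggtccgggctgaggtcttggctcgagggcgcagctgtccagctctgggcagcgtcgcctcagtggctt
Sox21, chr14:118237031-118237280, minus strand: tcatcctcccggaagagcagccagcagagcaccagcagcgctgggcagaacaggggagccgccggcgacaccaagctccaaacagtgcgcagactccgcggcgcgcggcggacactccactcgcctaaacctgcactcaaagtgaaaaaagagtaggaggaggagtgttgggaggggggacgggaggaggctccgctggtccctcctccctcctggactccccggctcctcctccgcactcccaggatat
Sox12, chr2:152398047-152398296, minus strand: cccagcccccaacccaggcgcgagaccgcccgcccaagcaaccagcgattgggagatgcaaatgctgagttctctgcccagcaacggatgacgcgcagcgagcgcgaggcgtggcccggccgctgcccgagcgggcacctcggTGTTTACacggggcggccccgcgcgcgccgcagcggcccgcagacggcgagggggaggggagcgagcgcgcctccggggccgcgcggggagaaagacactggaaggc
The forkhead motif TGTTTAC occurred once in these 4 sequences, in that of Sox12, on the strand printed. The table held 45 promoters for 37 of the 56 genes and for 16 of the 26 tested. Searched on both strands, TGTTTAC was in 1 of the 45 (2.22%), against 3.17% of all 32851 promoters. The SOX motif ACAAAG was in 10 of the 45 (22.2%, against 16.5% of all) and ACAATG in 5 (11.1%, against 10.7%), and the TATA letters TATAAA in 3 (6.67%, against 12.4%). The 10 with ACAAAG belonged to Foxb2, Foxo3, Foxp1, Foxp3 and Sox6 alone. Several were alternative promoters of Sox6 and more than 1 was of Foxp1, so they are not separate genes. Promoters rich in CpG, those with a GC content of 50% or more and at least 60% of the CpG number that base composition predicts, made up 26 of the 45 (57.8%, against 31% of all). These matches are a description of letters and say nothing of binding.

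Of the SOXB genes besides Sox2, Sox21 alone had counts. It is a factor known from hair follicles and from the epithelium of trachea and large airways. Sox21 had 2.31, 2.38, 1.29 and 0.715 CPM in GFP-positive libraries, against 55.0, 52.8, 43.3 and 44.1 CPM in GFP-negative ones. GFP-positive cells kept 1.62 to 4.52% of the GFP-negative level of their line, and the fall was 30.1-fold (log2 fold change −4.91, SE 0.27, edgeR FDR 2.5e-07). Unlike the mesenchymal genes, Sox21 had 79 counts over the GFP-positive libraries, and it reached the filter level in both sorts. Sox1, Sox3 and Sox14 had no count.

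SOXC factors, which share targets in progenitor cells and neurons, divided. Sox12 rose to 32.4, 26.9, 35.7 and 26.7 CPM in GFP-positive libraries, against 19.1, 16.8, 15.9 and 21.9 CPM in GFP-negative ones (log2 fold change 0.74, SE 0.13, edgeR FDR 0.000898); its levels are given because its promoter is printed. The sorts did not overlap, with the smallest step in SN2294. Sox4, needed in many epithelial progenitors, had 75.1, 59.7, 62.1 and 55.9 CPM in GFP-positive libraries, against 89.8, 79.6, 71.5 and 99.1 CPM in GFP-negative ones. It was lower in GFP-positive cells of every line although the ranges overlapped, and the fall was small (log2 fold change −0.42, SE 0.12, edgeR FDR 0.0119). Sox11, mainly fetal and neuronal, had 15 counts over the GFP-positive and 43 over the GFP-negative libraries, a GFP-negative rate 2.71 times the GFP-positive one (95% counting interval 1.47 to 5.24), but no difference was called without the filter (edgeR FDR 0.108).

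**Figure D4:**
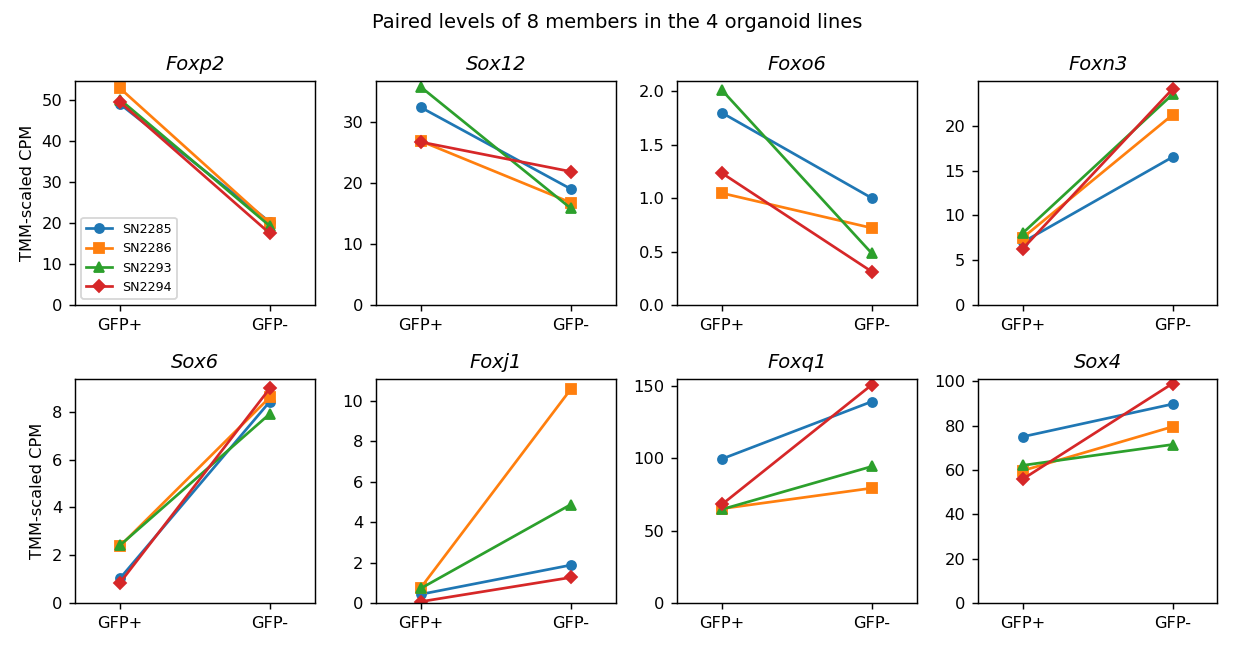
TMM-scaled CPM of 8 genes in GFP-positive (left) and GFP-negative (right) cells, joined by organoid line, with axes that start at 0. GFP-positive cells were above GFP-negative ones for Foxp2 by nearly the same step in every line, Foxq1 differed between lines as well as sorts, and Foxj1 was high in the GFP-negative cells of SN2286.

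SOXD factors lack an activation domain of their own and act with partners. Sox6, known from cartilage, muscle and red cells, fell to 1.03, 2.38, 2.41 and 0.845 CPM in GFP-positive libraries, against 8.42, 8.61, 7.91 and 8.98 CPM in GFP-negative ones. The GFP-negative levels were nearly level across lines, while those of GFP-positive cells were higher in SN2286 and SN2293 (log2 fold change −2.36, SE 0.31, edgeR FDR 6.6e-05). Sox5, the closest relative of Sox6, fell to 0.886 ± 0.326 CPM in GFP-positive cells, against 1.74 ± 0.232 CPM in GFP-negative cells (SD, n = 4 each; log2 fold change −0.93, edgeR FDR 0.0388). That call ended without any 1 of 6 libraries, all but GFP-positive SN2293 and SN2294, with FDRs of 0.0505 to 0.105, and in DESeq2, with 0.0631. The fits without a library did not pair the libraries by line. With line as a term the edgeR FDR of Sox5 was 0.0389, and 0.0243 to 0.206 when a line was left out. Sox13 had a log2 fold change of 0.17 and was not called (edgeR FDR 0.107), although its levels did not overlap.

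SOXF factors are best known from endothelium. Sox7 had 0.343, 0.0953, 0.161 and 0.130 CPM in GFP-positive libraries, against 9.36, 8.34, 8.34 and 9.77 CPM in GFP-negative ones, from 9 counts in the GFP-positive and 466 in the GFP-negative libraries. The GFP-negative level was even across lines, and GFP-positive cells kept 1.14 to 3.66% of it (log2 fold change −5.55, SE 0.30, edgeR FDR 7.7e-08). Sox7 passed the filter through GFP-negative cells alone, which favours a lower GFP-positive level. The other SOXF genes were all but absent. Sox17 and Sox18 had no count in GFP-positive cells, and in GFP-negative cells Sox17 had 2 and Sox18 had 3. Several defining endothelial markers were at or near 0 in both sorts. Cdh5 had 1 count in all, Kdr and Tie1 had at most 2 a library, Pecam1 had 1 to 4 counts in each GFP-positive library and 2 to 5 in each GFP-negative one, and Emcn, Robo4 and Car4 had none. Others were not. The receptor gene Tek had 0 to 1 count in each GFP-positive library, against 2 to 7 in each GFP-negative one, and the factor gene Fli1 had 0, against 2 to 12. The VEGF receptor genes Flt1 and Flt4 had 82 to 440 counts in each GFP-positive library and 50 to 559 in each GFP-negative one, and neither was called (log2 fold changes 0.36 and 0.01; these 4 genes named after their values were seen). Of 10 endothelial list genes with enough counts, 1 was higher, Esam (log2 fold change 3.84), which gave most of the list's sum of 184 to 277 CPM in GFP-positive libraries, against 74.6 to 84.0 CPM in GFP-negative ones. The 4 lower ones were Eng (−4.40), Calcrl (−5.29), Ramp2 (−5.44) and Plvap (−0.83), the last named after its value was seen. Of the 10, 50% were called, against 40.7% of all genes tested. Through GFP-negative cells alone 4 of the 10 passed the filter, which favours a lower GFP-positive level, and they gave 3 of the 4 lower calls. Of the 6 at the filter level in both sorts, 1 was higher and 1 was lower. Without Esam the list summed to 26.6 to 62.1 CPM in GFP-positive libraries, against 59.7 to 67.6 CPM in GFP-negative ones. The part of endothelial cells in the level of Sox7 was not tested.

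Foxj1 is the master factor of motile cilia in airway cells. It had 0.428, 0.762, 0.724 and 0.0650 CPM in GFP-positive libraries, against 1.87, 10.6, 4.87 and 1.26 CPM in GFP-negative ones. The sorts did not overlap, but the GFP-negative level varied widely between lines, highest in SN2286 and lowest in SN2294 (log2 fold change −3.33, SE 0.80, edgeR FDR 0.0094). Foxj1 passed the filter through GFP-negative cells alone. Without the GFP-negative library of SN2286 the log2 fold change was −2.55, with an edgeR FDR of 0.0086. Foxj1 was the only 1 of the 26 (3.85%, against 5.32% of all genes) to be called between lines, in a test of the line terms beside the sort (edgeR FDR 0.0082). Without line SN2286 that FDR was 0.108. Some other cilia genes were high in the same library, where Tekt1 had 12 counts and Tekt4 14, against 0 to 3 counts in each of the other 7. Others were not, with 61, 49, 65 and 32 counts of Rsph9 in GFP-negative libraries and 177, 182, 201 and 72 of Rfx2. All of these were named after their values were seen. The list summed to 36.0 to 43.5 CPM in GFP-positive libraries, against 44.4, 82.2, 62.5 and 54.0 CPM in GFP-negative ones. Of its 9 genes with enough counts, 2 were lower in GFP-positive cells (22.2% called, against 40.7% of all genes tested). They were Myb (−2.59) and Dnaic2 (−3.52), and the next by p, 1700009P17Rik (−1.03) and Rfx3 (−0.47), were not called. Rfx2 (0.24), Rsph1 (0.18) and Rsph9 (0.39) leaned higher in GFP-positive cells and were not called (named after their values were seen). Through GFP-negative cells alone 3 of the 9 passed the filter, with 1 of the 2 lower ones. With the replicate block 3 were lower, Rfx3 being the addition (edgeR FDR 0.0330). The part of ciliated cells in the level of Foxj1 was not tested. Foxn4, linked to ciliated cells in frogs and to retina in mice, had 0 counts in GFP-positive and 5 in GFP-negative cells.

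Foxi1, the factor of ionocytes, had no count, nor did Foxi2 or Foxi3. Of the ionocyte list, 6 of 16 genes had enough counts, 4 higher and 1 lower in GFP-positive cells, or 4 and 2 with the replicate block. Without the block 83.3% of the 6 were called, against 40.7% of all genes tested. Through GFP-negative cells alone 2 of the 6 passed the filter, the 1 lower gene among them. Atp6v1c2 (1.33), Cftr (0.78) and Tfcp2l1 (1.13) rose and Dmrt2 fell (−4.83), while Ascl3, another ionocyte factor, had 0 to 3 counts a library. Sox10, which marks neural crest and glia, also had no count. Of 8 measured genes of the neural crest, glia and melanocyte list, Ret (1.26), Erbb3 (0.51) and L1cam (0.58) were higher and Ncam1 (−2.82) was lower in GFP-positive cells. That is 50% called, against 40.7% of all genes, and Ncam1 passed the filter through GFP-negative cells alone.

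Among forkhead genes of endoderm, Foxe1, the thyroid and palate factor, had 0, 0, 1 and 0 counts in GFP-positive libraries, against 26, 16, 17 and 12 counts in GFP-negative ones. With 1 count against 71, the GFP-negative rate was 67.0 times the GFP-positive one, with a 95% counting interval of 11.6 to 2683 (edgeR FDR 5.8e-05), and the fitted fold change depends on the prior count. Foxe1 too passed the filter through GFP-negative cells alone. Foxa3, which acts in liver and gut and is known from mucous cell change in the lung, and Foxn1 were the 2 genes of the 18 under the filter that were called when no filter was set. Foxa3 had 12, 12, 8 and 12 counts in GFP-positive libraries, against 2, 5, 8 and 1 in GFP-negative ones, a rate 2.91 times the GFP-negative one (95% counting interval 1.61 to 5.53) and an edgeR FDR of 0.0356 in that test. Foxn1, the factor of thymus and hair follicle epithelium, had 2 counts over the GFP-positive and 20 over the GFP-negative libraries, a GFP-negative rate 9.44 times the GFP-positive one (95% counting interval 2.29 to 83.3), with an edgeR FDR of 0.0237. Its GFP-negative counts of 6, 5, 5 and 4 were 0.401, 0.328, 0.304 and 0.630 CPM, highest in the shallow library of SN2294.

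**Figure D5:**
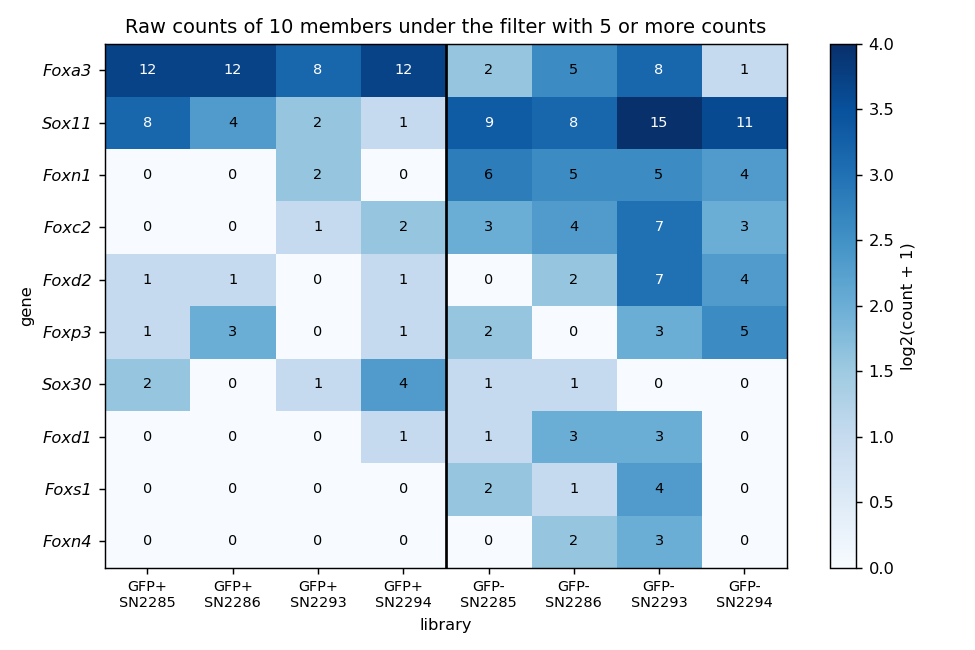
Raw counts in 8 libraries of the 10 genes under the filter that had 5 counts or more in all, GFP-positive left of the black line and GFP-negative right of it, with darker cells for more counts on a log2(count + 1) scale. Foxa3 has 8 to 12 counts in GFP-positive libraries, Sox11 has 8 to 15 in GFP-negative ones, and Foxs1 and Foxn4 have counts in GFP-negative libraries alone.

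The remaining genes gave too little to compare. Sox30, known from testis, had 7 counts in GFP-positive and 2 in GFP-negative cells (3.71 times, 95% counting interval 0.706 to 36.6). Foxl2, the ovary factor, had 0 GFP-positive and 3 GFP-negative counts. Foxd4, Foxh1, Foxr2, Sox8 and Sox17 had 1 or 2 counts each in all 8 libraries. At these depths a count of 0 in 1 library allows a level of up to 0.195 to 0.286 CPM in GFP-positive and 0.183 to 0.473 CPM in GFP-negative cells, so such genes were not detectable rather than absent.

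Of 19 measured partner and relative genes of the SOX factors, 3 were higher and 5 were lower in GFP-positive cells, which is 42.1% called, against 40.7% of all genes, with a median log2 fold change of −0.07. The 4 with the smallest p were the Wnt-linked HMG box genes Tcf7 (−1.20) and Lef1 (−3.87), Tox3 (−2.81), and Ctnnb1 (0.23), which encodes beta-catenin. Their summed level was 2310 to 2368 CPM in GFP-positive libraries, against 2163 to 2223 CPM in GFP-negative ones. Among AT2 markers the 4 with the smallest p were Lpcat1 (2.62), Dram1 (2.30), Cxcl15 (3.52) and Sftpd (1.95).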

How the data were processed

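Polyadenylated RNA of GFP-positive and GFP-negative organoid cells was sequenced in 8 libraries. The authors deposited raw counts per gene symbol, whole numbers without normalization, as 1 table. The submitters' processing notes name cutadapt 1.16, STAR 2.5.3a, featureCounts, Subread and the build mm9. Annotation, strandedness and the handling of reads with several matches were not given in the sources used here, so overlapping and antisense genes cannot be told apart. PCR reads without molecular identifiers are not independent molecules, so intervals and floors (3 counts) cover counting error only.

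The filter was filterByExpr, which asks for 10 counts, scaled to depth, in 4 libraries and 15 in total. Genes that passed were scaled by TMM and tested in R 4.3.3 with edgeR 4.0.16 (limma 3.58.1), by the two-sided robust quasi-likelihood test with no term but the sort and Benjamini-Hochberg adjustment over 12848 genes. The SE is the log2 fold change over the square root of F. Line differences were tested by the 3 line terms beside the sort. The tests were checked on data simulated with no difference between lines, so that check does not cover the correlation of libraries within a line.

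The 2 libraries of a line share their organoids. After removal of group means they correlated across genes at 0.37, 0.46, 0.32 and 0.40. A GFP-positive and a GFP-negative library of different lines correlated at −0.003 or less. Removal of group means itself lowers the values between lines, so this contrast is partly built in. Alternatives were line as a replicate block, DESeq2 1.42.0, other scalings and filters, thinning to 5910344 counts, and leaving out each library or line.

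Values per library are given for genes called with a log2 change of 1 or more, the 6 with the most counts and the 4 with the smallest p between lines, and from each list the 4 genes with the smallest p are named. Members and lists were chosen with earlier results of these data known. Promoters came from a RefSeq table of GRCm38.p6, matched by symbol, and no protein table was used. 1 gene under the filter is not reported here.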

Additional observations from a re-analysis of the deposited data

Results flagged for a closer look

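In 2 of the 52 groups of 4 libraries looked at, 1 library stood apart from the other 3, and chance alone gives such a flag in about 1 in 20 groups. Foxq1 had 99.6 CPM in the GFP-positive cells of SN2285, against 64.7 to 68.1 CPM in the other GFP-positive libraries. The GFP-negative cells of the same line had 139 CPM of Foxq1, the second highest of that sort. Foxe1 had 0.0805 CPM in the GFP-positive cells of SN2293 and 0 in the other 3, which is a single count and lies under the floor of 3 counts.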

How the results depend on the processing

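Over 20 alternatives and 26 genes, 451 of 520 values kept their direction and their side of the FDR threshold, 33 lost a call, 15 gained one and 21 changed sign. The 13 genes Sox7, Foxp2, Sox21, Foxc1, Foxn3, Foxl1, Foxf2, Foxe1, Sox6, Sox12, Foxj1, Sox4 and Foxo4 kept their call in all 20. Among these 13, Sox7, Foxc1, Foxl1, Foxf2, Foxe1 and Foxj1 passed the filter through GFP-negative cells alone. The replicate block gave 21 calls, 6 higher and 15 lower, and among the 26 changed no other call than those of Foxq1, Foxj2 and Foxn2. The 5 calls of higher genes became 3 with library size alone, where Foxk2 and Foxp1 were not called, and 3 to 5 with 1 library left out. Scaling by library size alone moved the median of all genes to −0.16 and the split of all calls to 1505 higher and 4199 lower, against 2430 and 2801, and the causes of the changes were not tested. Without the shallow GFP-negative library of SN2294, 17 members were called, with Sox5 lost. The count of genes called between lines was 2 with library size alone, with no filter, without line SN2294 and after thinning, the second gene being Foxn2 or Foxq1, and without SN2286 the 1 gene called was Foxn2. Sign changes were all among Foxj3, Foxo3, Foxp4 and Foxk1, none of them called. With library size alone Foxj3 was −0.12 and Foxo3 −0.15, and with upper quartile factors Foxo3 was −0.0021. After thinning, Foxj3 was −0.0017, Foxk1 0.00050, Foxo3 −0.0039 and Foxp4 0.013. With a library left out, Foxj3 ran from −0.0097 to 0.084, Foxo3 from −0.052 to 0.11 and Foxp4 from −0.050 to 0.027. In the blocked fits without a line, Foxo3 was −0.013 without SN2285, −0.024 without SN2286 and −0.0097 without SN2293, Foxj3 was −3.1e-04 without SN2286 and −0.025 without SN2294, and Foxp4 was 0.048 without SN2286 and 0.0049 without SN2294.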
